A study of Homo sapiens with 21 samples.

Results

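Of the 29176 regions that the authors called for HA-tagged HOXD13 in the A375 melanoma line, 4332 (14.8%, 95% Wilson interval 14.4 to 15.3%) lay in chromatin that was both open and acetylated in A375 cells expressing GFP. These regions, called the open and acetylated sites here, were chosen by position: each overlapped by at least 1 bp an ATAC-seq region and a histone H3K27ac region of A375-GFP, on chromosomes 1 to 22 and X. Another 5613 HOXD13-HA regions overlapped ATAC alone, 2151 overlapped H3K27ac alone and 17080 overlapped neither. The A375-HOXD13-HA cells carry the tagged factor and A375-GFP cells serve as their control. The other samples are H3K27ac libraries of A375 with the hairpins shNTC, read as a non-targeting control, shH2 and shH3, and libraries of the lines 501mel, SKMEL-5 and SKMEL-147. All cultures were grown for 72 h, and 1 µg/ml doxycycline was given where a construct had to be induced. The labels name neither the cultures that received it nor the targets of the 2 hairpins, and they do not tell ChIP-seq from CUT&Tag. Each list comes from 1 library, apart from 2 shNTC replicates that nothing in the labels describes as separate cultures, so no difference between conditions could be tested. The openness and acetylation of the sites were measured in GFP cells, not in the cells that carry HOXD13-HA, and the HA and IgG control libraries were not analysed here. The 501mel ATAC regions carry siNTC in their names, a treatment that the labels leave unmentioned. No RNA values were used, so the identity of the lines was not tested against marker expression.

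HOXD13 is a homeobox transcription factor of the posterior HOX group that patterns the distal limb and the genital bud, and it binds AT-rich sequence through its homeodomain. Acetylation of lysine 27 on histone H3 marks active promoters and enhancers, and ATAC-seq maps the open chromatin in which most enhancers sit. A HOXD13 region with both marks therefore carries marks of a regulatory element in cells without the tagged factor. CTCF is the protein that, with cohesin, forms loop anchors and insulators. The lines 501mel and SKMEL-5 are known as pigmented, melanocytic melanoma lines, while A375 and SKMEL-147 are known as less differentiated ones.

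Promoters were the only sites whose sequence could be read. The RefSeq table of GRCh38.p14 holds 34961 promoter windows of 300 bases, 250 before and 50 after a gene start. Of these 210 windows (132 of protein-coding genes) overlapped 184 of the 4332 sites. The letters CAATAAA, a posterior HOX type sequence, were found on either strand in 28 of the 210 windows (13.3%, 9.39 to 18.6%). They stood in 4.00% of all windows and in 1.96% of the 8536 windows that were open and acetylated without a HOXD13-HA region. A longer HOXD13-type sequence, CTCGTAAA, of which CAATAAA is no part, was likewise sought on both strands and stood in 5 windows (2.38%, 1.02 to 5.45%), against 0.137% of all windows and 0.0820% of the open and acetylated windows without HOXD13-HA. With −log10 q of at least 10 in every list no window with a site held CTCGTAAA (0 windows), and with sites over 2 kb from a protein-coding gene start 1.16% did. The sequence lay wholly inside the HOXD13-HA region in 21 of the 28 and 4 of the 5 windows. Base composition moved with this: the median GC content was 56.5% in the 210 windows, 65.3% in open and acetylated windows without HOXD13-HA and 58.7% in all windows. Among windows with up to 50% GC, CAATAAA stood in 17 of 75 with a site (22.7%), in 41 of 756 without HOXD13-HA (5.42%) and in 9.29% of all. Among windows over 60% GC these shares were 5.13%, 1.02% and 0.901%. The AP-1 letters TGANTCA were found in 13.3% of the windows with a site, 6.92% of those without HOXD13-HA and 7.68% of all. The TEAD letters CATTCC stood in 19.5%, 11.5% and 14.0%, and the MITF E-box CATGTG in 13.3%, 6.91% and 11.1%. A match describes the letters and is neither a measured binding position nor a cause.

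The 250 bases before the start are shown for 5 windows with a posterior HOX sequence near the HOXD13-HA summit, and for TNRC18, the window with the highest HOXD13-HA fold enrichment. They read 5′ to 3′ along the gene's strand, with CAATAAA, CTCGTAAA or their reverse complement in capitals. The windows were picked after their values were seen. HOXC4, whose start the table shares with HOXC5, is a HOX gene of the neck and trunk series (chr12:54016638-54016887, + strand), and MYLK encodes the kinase of smooth muscle myosin light chain (chr3:123620549-123620798, − strand). TBXAS1 encodes thromboxane synthase (chr7:139829014-139829263, + strand), and ECHDC1 encodes a metabolite repair enzyme (chr6:127342408-127342657, − strand). LUZP1 encodes a leucine zipper protein of the cytoskeleton (chr1:23168857-23169106, − strand), and TNRC18 encodes a chromatin protein (chr7:5423835-5424084, − strand).
HOXC4: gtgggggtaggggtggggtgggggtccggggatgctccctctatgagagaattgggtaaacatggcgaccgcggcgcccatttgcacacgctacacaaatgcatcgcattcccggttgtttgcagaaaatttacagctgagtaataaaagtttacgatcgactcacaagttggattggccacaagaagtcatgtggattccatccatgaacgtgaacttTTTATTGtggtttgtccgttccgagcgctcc
MYLK: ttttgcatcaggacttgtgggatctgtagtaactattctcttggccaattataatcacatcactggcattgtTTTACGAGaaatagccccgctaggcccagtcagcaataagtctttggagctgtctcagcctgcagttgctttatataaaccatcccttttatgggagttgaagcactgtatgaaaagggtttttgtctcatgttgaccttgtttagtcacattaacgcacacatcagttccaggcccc
TBXAS1: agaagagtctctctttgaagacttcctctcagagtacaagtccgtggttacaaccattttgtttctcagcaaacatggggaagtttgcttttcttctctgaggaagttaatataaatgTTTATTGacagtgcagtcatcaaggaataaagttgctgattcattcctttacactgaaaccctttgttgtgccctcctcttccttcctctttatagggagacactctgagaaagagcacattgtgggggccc
ECHDC1: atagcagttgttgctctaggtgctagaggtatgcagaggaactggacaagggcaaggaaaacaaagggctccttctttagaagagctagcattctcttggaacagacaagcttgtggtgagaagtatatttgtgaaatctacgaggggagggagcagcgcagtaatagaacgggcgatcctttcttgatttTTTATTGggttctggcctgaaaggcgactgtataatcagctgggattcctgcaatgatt
LUZP1: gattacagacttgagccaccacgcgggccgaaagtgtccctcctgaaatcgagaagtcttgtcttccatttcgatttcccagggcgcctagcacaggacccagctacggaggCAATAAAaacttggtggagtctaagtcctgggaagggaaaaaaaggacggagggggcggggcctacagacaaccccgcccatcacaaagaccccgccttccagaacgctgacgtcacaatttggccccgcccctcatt
TNRC18: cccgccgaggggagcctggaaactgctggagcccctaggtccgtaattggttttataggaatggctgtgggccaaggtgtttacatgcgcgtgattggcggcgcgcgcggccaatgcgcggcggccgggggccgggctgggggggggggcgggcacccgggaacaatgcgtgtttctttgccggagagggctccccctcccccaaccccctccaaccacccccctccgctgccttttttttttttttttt

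The middle of the capitals lay 13 bp from the HOXD13-HA summit at LUZP1 and 26 bp from it at ECHDC1. It lay 54 bp away at HOXC4, 68 bp at MYLK and 105 bp at TBXAS1. The HOXD13-HA folds of these 5 regions ran from 4.73 at HOXC4 to 7.65 at TBXAS1. TNRC18 had a fold of 18.8 and held neither sequence in its window.

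Depth could not be read from the region lists, so the number of regions stands in for it. The lists held 139985 (A375-GFP), 85977 and 80242 (shNTC), 43634 (shH2) and 51838 (shH3) H3K27ac regions in A375, and 42115 to 58855 in the other lines. ATAC lists held 118398 regions in A375-GFP and 56333 (SKMEL-5) to 163102 (SKMEL-147) in the other lines. Folds are the authors' values within each list, and folds set side by side are not a measured change in level. A longer list overlaps more sites, and for this reason shares are also given with lists held to equal length. Intervals cover counting error only, and a fold from bulk cells does not tell apart fewer cells with a mark from less of the mark in each.

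By the authors' values, which chose the sites and are given as description, the open and acetylated sites spanned a wide range of HOXD13-HA strength. Their HOXD13-HA fold over the caller's background had a median of 3.63 and ran from 1.64 to 22.4, with a median of 4.04 in the regions that were neither open nor acetylated. Their median −log10 q was 6.87, against 6.86 in the open only regions and 4.66 in those with neither mark. They were a median of 354 bp wide and covered 1.83 Mb. The highest fold in the list (40.2) lay among the regions with neither mark.

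HOXD13-HA sat nearer to the point of highest accessibility than to that of highest acetylation. The HOXD13-HA summit lay inside the ATAC region at 92.5% of sites and inside the H3K27ac region at 70.9%. Its median distance to the ATAC summit was 109 bp, against 299 bp to the H3K27ac summit, and it fell within 100 bp of them at 47.0% and 19.6% of sites. In the open only regions the ATAC summit was a median of 74 bp away. The rule required both overlaps, and the overlapped H3K27ac regions were wider, with a median of 1116 bp against 824 bp for ATAC. A summit can lie farther off in a wider region, and how much of the contrast comes from width was not tested. H3K27ac lies on nucleosomes that flank the open stretch, and all 3 lists shared at least 1 base at 98.1% of sites.

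The limits of the rule passed through a dense range of overlaps. Sites near PRKAG2, CDCA7 and SPESP1-NOX5 shared 1 bp with an H3K27ac region, and regions near HEBP1, GSPT1 and CYB5A touched the missing mark without sharing a base. Overlaps of 10 bp or less made 75 regions into sites, and 58 other regions missed by 10 bp or less. Requiring the summit inside both marks kept 64.6% of the sites, 9.60% of all HOXD13-HA regions, and requiring both marks to cover at least 50% of each region made 9.69% of them sites.

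Few sites lay at promoters. The summit was within 2 kb of the start of a protein-coding gene at 358 sites (8.26%, 7.48 to 9.12%), beside 3.91% of all HOXD13-HA regions, 4.42% of the open only, 7.44% of the acetylated only and 2.20% of those with neither mark. Distances of 10 to 50 kb held 32.1% of sites and distances over 100 kb up to 500 kb held 27.7%. The median distance was 50042.5 bp, shorter than in the open only regions (75614 bp) and those with neither mark (83910 bp) and longer than in the acetylated only (38930 bp). Summits fell inside a gene at 53.4% of sites (50.1% of all HOXD13-HA regions). Acetylated A375-GFP ATAC regions without HOXD13-HA lay within 2 kb of a gene start far more often, at 22.8%, against 8.13% of the ATAC regions with a site. Exons, introns and UTRs were not told apart, and for 4162 of 19974 genes, where no start was at hand, the nearer gene end was used. Of the 358 sites 272 lay within 2 kb of a known start, and the rest within 2 kb of such a gene end.

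**Figure D1:**
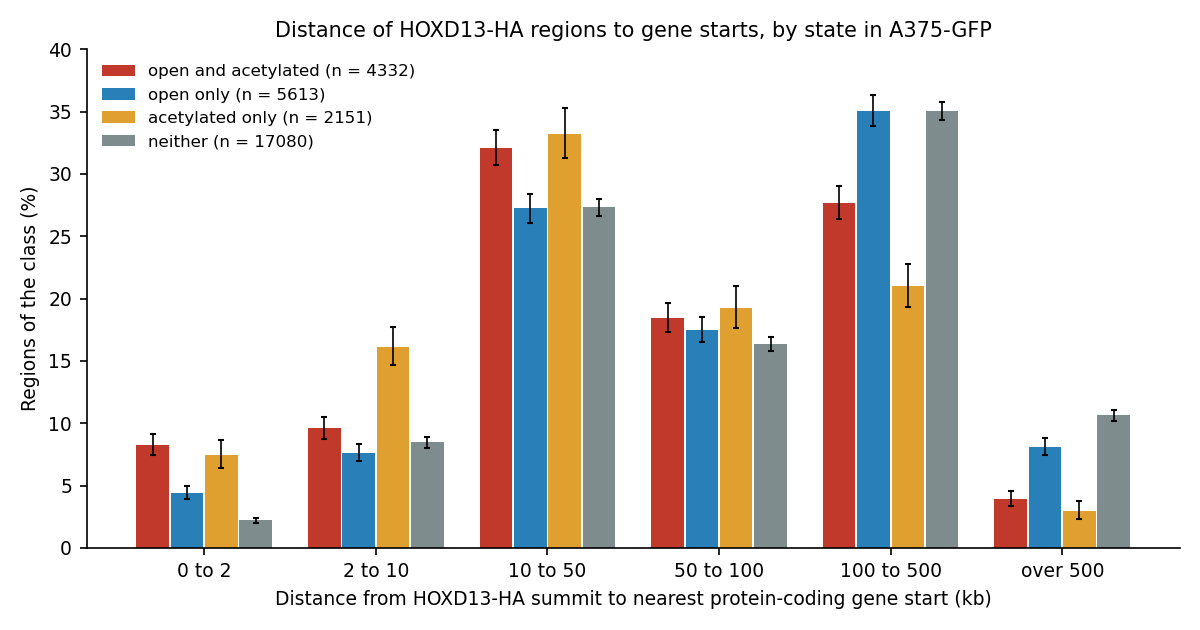
Share of HOXD13-HA regions (%) by distance from the summit to the nearest protein-coding gene start (kb), for the 4 classes of state in A375-GFP, with 95% Wilson intervals. The open and acetylated sites exceed the open only and neither classes up to 50 kb and fall below both beyond 100 kb.

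Near gene starts the highest folds belonged to TNRC18 (18.8), RHCG (10.5), NWD1 (10.0), SMAD6 (9.87) and CCNI (9.65), with the nearer gene end in place of the start for RHCG and NWD1. RHCG encodes an ammonium transporter, SMAD6 an inhibitor of BMP signalling and CCNI cyclin I. The site 154 bp from CCNI was listed with H3K27ac folds of 14.0 in A375-GFP, 54.4 and 52.2 in the shNTC replicates, 18.2 in shH2 and 29.9 in shH3. It was open in all 3 other lines, with ATAC folds of 9.64 in 501mel, 4.48 in SKMEL-5 and 9.64 in SKMEL-147, and was acetylated in SKMEL-5 alone among them. STAG1, which encodes a cohesin subunit, had a site 896 bp from its start that was open and acetylated in every line. CYP27B1, the enzyme that activates vitamin D, had a site 154 bp from its nearer end that no other line listed. That site was in both shNTC lists (4.45 and 5.05) and in neither hairpin list.

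The 15 sites of highest HOXD13-HA fold were distal apart from TNRC18, the only 1 within 2 kb of a gene start. Their folds ran from 22.4 at NPRL3 to 13.8 at TGFBI, with A375-GFP H3K27ac folds from 2.51 at PALS2 to 23.0 at ACTBL2. NPRL3, a subunit of the GATOR1 complex that restrains mTORC1, carried the highest inside the gene, 16167 bp from its start. It had an ATAC fold of 4.29 and H3K27ac folds of 10.3 in A375-GFP, 5.27 and 4.45 in shNTC and 4.47 in shH2, with no region in shH3 or in any other line. PKDCC, which encodes a secreted kinase of limb and bone growth, followed at 21.8, open in 501mel (5.77) and SKMEL-147 (6.21). The third, at 20.1, lay inside HOXC4 and HOXC5. The sites near POLR1A and PRDM1, both at 18.6, had A375-GFP H3K27ac folds of 4.28 and 4.75 and were in none of the shNTC and hairpin lists. POLR1A encodes the largest subunit of RNA polymerase I and PRDM1 a transcriptional repressor.

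Of these 15, TGFBI alone was in every ATAC and H3K27ac list. This gene encodes a matrix protein induced by TGF-beta, and its site (chr5:136036946-136037816) lay inside the gene 8386 bp from the start. The A375 H3K27ac folds there were 9.60 in GFP, 31.6 and 26.7 in shNTC, 16.3 in shH2 and 20.2 in shH3. ATAC folds were 17.3 in 501mel, 7.86 in SKMEL-5 and 18.3 in SKMEL-147, and H3K27ac folds 3.75, 12.7 and 13.0. Neither CTCF list held it. Of the 15 sites 11 were in both shNTC lists and 6 of those in neither hairpin list, while 4 were in all 4 lists. Of all sites 86.3% were in both shNTC lists, 10.8% of those in neither hairpin list, and 60.3% in all 4 lists. For all HOXD13-HA regions these shares were 24.9%, 25.0% and 12.7%.

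**Figure D2:**
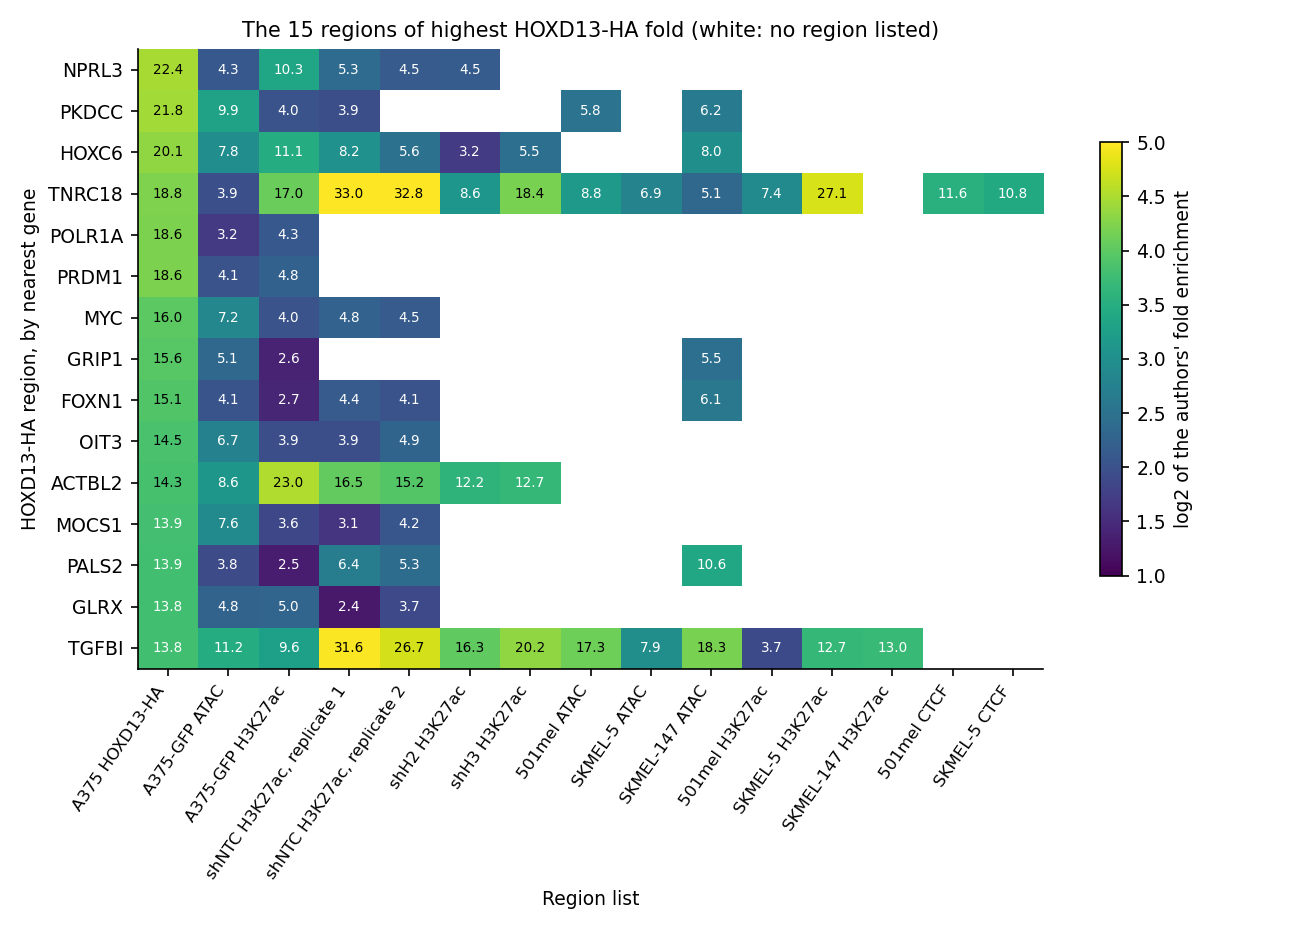
The 15 open and acetylated sites of highest HOXD13-HA fold (rows, named by nearest gene) in every region list (columns), with the authors' fold enrichment as number and as colour on a log2 scale, and white where no region was listed. TNRC18 and TGFBI are in nearly every list, and POLR1A and PRDM1 in none beyond the 3 lists that chose them.

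Sites were spread over 2761 nearest genes, 1853 of which had a single site, and 70 of which had 5 or more. ZNF608, a zinc finger gene, was nearest to the most, 15 of its 52 HOXD13-HA regions, at 42468 to 736502 bp. RERE, a nuclear receptor corepressor gene, had 10 of 16 and SOX5, an SRY-box gene active in neural crest and melanocytes, 10 of 25. KLF5 had 9 of 41 and the MYC oncogene 8 of 21. INHBA, the activin subunit, had 8 of 21, at 201709 to 594967 bp. At INHBA all 8 were in both shNTC lists, 7 in shH2 and 8 in shH3. All 8 were open in SKMEL-147 and 2 in 501mel. At SOX5 all 10 were in both shNTC lists, 6 in shH2 and 9 in shH3, and none was open in SKMEL-5.

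Runs of sites were short. Joining neighbours whose summits lay up to 12496 bp apart put 806 sites (18.6%) into 371 chains, of which 9 held 4 or more. The longest, 5 sites over 25.1 kb, ran through the HOXC cluster (chr12:54009368-54034430). A chain of 4 over 2.46 kb lay inside ADAR, which encodes an RNA-editing enzyme. All 4 lay in 1 region of each shNTC list, with folds of 39.6 and 31.6, and of shH3, with 35.2, and 3 of them in 1 region of shH2, with 20.1. A chain of 4 inside TANC1, a synaptic scaffold gene, was in both shNTC lists, 1 in shH2 and 0 in shH3. All 4 were acetylated in SKMEL-5 and 3 in 501mel, the melanocytic lines, and 1 in SKMEL-147.

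HOX genes encode the factor's own family. Of 39 HOX genes 30 had a site within 50 kb, beside 20.6% of all protein-coding genes. The genes lie side by side, so the 30 rested on 20 different sites: 7 of 14 HOXD13-HA regions around HOXA, 6 of 14 around HOXB and 7 of 12 around HOXC. Around HOXD 0 of 3 regions were open and acetylated. The 6 HOXB sites were in all 4 lists of the hairpin series, as were 4 of the 7 HOXA and 5 of the 7 HOXC sites. All 4 lists held 60.3% of all sites and 12.7% of all HOXD13-HA regions. Of the 20 sites 18 were open in SKMEL-147 and 6 acetylated. In 501mel 7 were open and 2 acetylated, and in SKMEL-5 2 and 4. Of all sites 75.1% were open and 46.1% acetylated in SKMEL-147, 41.3% and 19.3% in 501mel, and 30.6% and 35.1% in SKMEL-5. For all HOXD13-HA regions these shares were 33.3% and 16.0%, 15.6% and 7.06%, and 10.3% and 10.7%. The strongest site of the clusters, fold 20.1 inside HOXC4 and HOXC5 (chr12:54033278-54034430), also covers the hairpin of the microRNA gene MIR615. It had H3K27ac folds of 11.1 in A375-GFP, 8.17 and 5.60 in shNTC, 3.24 in shH2 and 5.48 in shH3. Among the other lines it was open in SKMEL-147 (7.99) and acetylated in none. The site over the HOXC4 promoter shown above had H3K27ac folds of 38.7 and 33.0 in shNTC and 18.9 in shH3, and no region in shH2. HOXB13, the paralogue of HOXD13 in that cluster, had a site 26 bp from its start, with H3K27ac folds of 19.3 and 17.8 in shNTC, 5.93 in shH2 and 8.66 in shH3. The HOXA11 site, 897 bp from the start, had an H3K27ac fold of 4.05 in A375-GFP, was in none of the 4 lists and was open in SKMEL-147 (10.4). One HOXA site, 123 bp from a start of HOXA3, was in both shNTC lists (10.2 and 8.12) and in neither hairpin list.

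Several gene lists beyond HOX held a site within 50 kb at more than 20.6% of their genes. These counts describe the lists, which were drawn up with earlier results of the data known. The values beside gene names are the HOXD13-HA folds of the strongest such site. MAPK feedback genes, which restrain or report ERK signalling, held 10 of 18, led by EPHA2 (10.8), ETV4 (9.94) and IER3 (7.88). AP-1, TEAD and YAP factors held 11 of 20, led by ATF3 (6.59) and WWTR1 (5.17), the latter the gene of the coactivator TAZ. Genes of the adenosine pathway held 8 of 15, including NT5E, which encodes CD73, at 3.76. The angiogenesis list, named for ligands and receptors, held 13 of 25. It was led by the receptor gene NRP1 (8.17) and by HIF1A (7.98) and EPAS1 (5.18), which encode hypoxia transcription factors. Undifferentiated state genes held 12 of 25, led by TGFBI, SPARC (5.75) and EGFR (5.03). Limb genes held 9 of 31, led by PRRX1 (9.35) and RUNX2 (8.49). Class 3 semaphorins and plexins held 4 of 12, led by SEMA3A (6.43), chemokines and inflammatory cytokines 5 of 18, led by the cytokine gene IL1B (4.80), and antigen presentation genes outside the MHC 3 of 10, led by NLRC5 (4.57). Pigment and melanocyte genes (5 of 20, 25%) and cohesin partners (3 of 13, 23.1%) were also above 20.6%. Immune checkpoints (3 of 15) and housekeeping genes (3 of 15) were just below it. In lists this short, the limb (29.0%), chemokine and cytokine (27.8%) and antigen presentation (30%) shares lay close to that of the pigment genes. Markers of other cells held 5 of 12 (endothelium, 41.7%), 4 of 11 (keratinocytes, 36.4%), 3 of 12 (fibroblasts, 25%) and 1 of 12 (T cells, 8.33%). All of these but the T cell share were above 20.6%. The endothelial and keratinocyte shares were also above those of the semaphorin and plexin (33.3%), antigen presentation, limb, and chemokine and cytokine lists. Within 10 kb the counts were 22 HOX genes, 6 angiogenesis genes, 6 undifferentiated state genes and 0 chemokine or cytokine genes, beside 2242 of all protein-coding genes. With −log10 q of at least 10 in every list, 56 genes of the lists had a site within 50 kb, against 132 without that minimum.

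**Figure D3:**
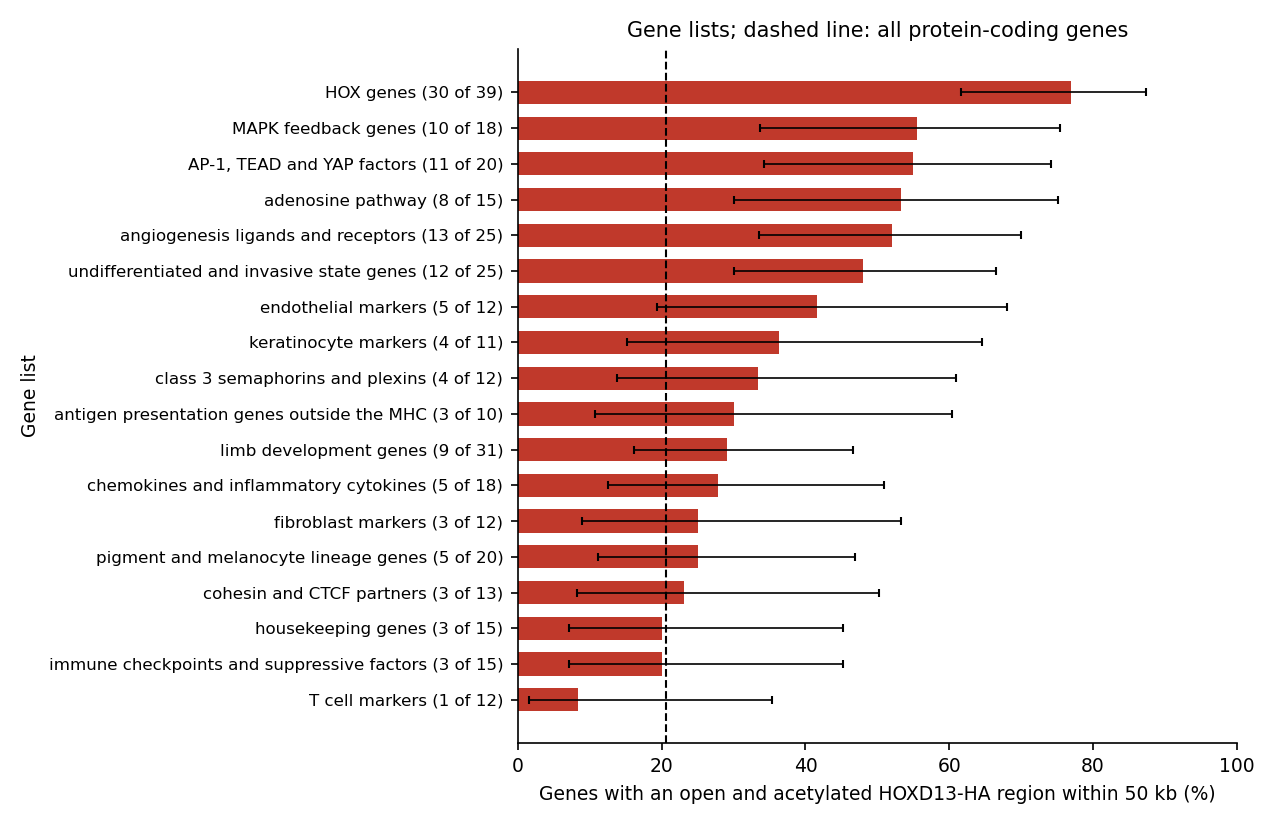
Share of the genes of each list (%) with an open and acetylated HOXD13-HA site within 50 kb, with the count in the label, 95% Wilson intervals as lines and the share of all protein-coding genes (20.6%) as a dashed line. HOX genes are highest at 30 of 39 and T cell markers lowest at 1 of 12, and most intervals are wide.

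Single loci, chosen after their values were seen, show how the state of sites varied. At MITF, the master regulator of melanocytes, 5 of 18 HOXD13-HA regions were sites, all inside the gene. The strongest (fold 10.9) had H3K27ac folds of 6.57 and 9.37 in shNTC, 5.07 in shH2 and 9.20 in shH3, and was open in SKMEL-147 (6.90) and in neither melanocytic line. Another, of fold 3.01, was in none of the shNTC and hairpin lists. It was open in 501mel (18.9) and SKMEL-5 (10.2), acetylated there at 3.00 and 26.1, and had neither mark in SKMEL-147. At NRP1, the neuropilin receptor of VEGF and semaphorins, the strongest site had H3K27ac folds of 21.8 and 21.4 in shNTC, 10.3 in shH2 and 14.6 in shH3. SKMEL-147 listed it with 24.4 for ATAC and 19.2 for H3K27ac, and the melanocytic lines did not list it. The NT5E site, 33700 bp from the gene, had H3K27ac folds of 15.8 and 13.4 in shNTC, 9.24 in shH2 and 5.16 in shH3, and was open (5.52) and acetylated (5.05) in SKMEL-147 alone among the other lines. At EGFR the site of highest fold was in all 4 lists, at 7.76 and 5.60 in shNTC, 4.89 in shH2 and 4.68 in shH3. Among the other lines it was open in 501mel alone (4.51) and acetylated in none. The EGFR sites of fold 2.58 and 2.79 differed from it. Both were open in all 3 other lines and acetylated in SKMEL-147 alone among them, with H3K27ac folds of 5.77 and 19.5.

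The sites were far more often open in SKMEL-147 than in the melanocytic lines. SKMEL-147 ATAC covered 75.1% of sites (73.8 to 76.4%), beside 33.3% of all HOXD13-HA regions, 501mel ATAC 41.3% beside 15.6% and SKMEL-5 ATAC 30.6% beside 10.3%. With the 3 ATAC lists held to the length of the shortest, these shares were 48.2%, 29.5% and 30.6%, so 501mel was then no longer above SKMEL-5. H3K27ac covered 46.1% of sites in SKMEL-147 (all HOXD13-HA regions 16.0%), 35.1% in SKMEL-5 (10.7%) and 19.3% in 501mel (7.06%). At equal list length they were 42.0%, 35.1% and 17.2%. Openness of the open only HOXD13-HA regions was lower than that of the sites by under 10 percentage points in each line, at 70.4%, 36.1% and 26.1% for SKMEL-147, 501mel and SKMEL-5. Their acetylation in these lines was less frequent, at 21.0%, 5.95% and 15.0%.

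**Figure D4:**
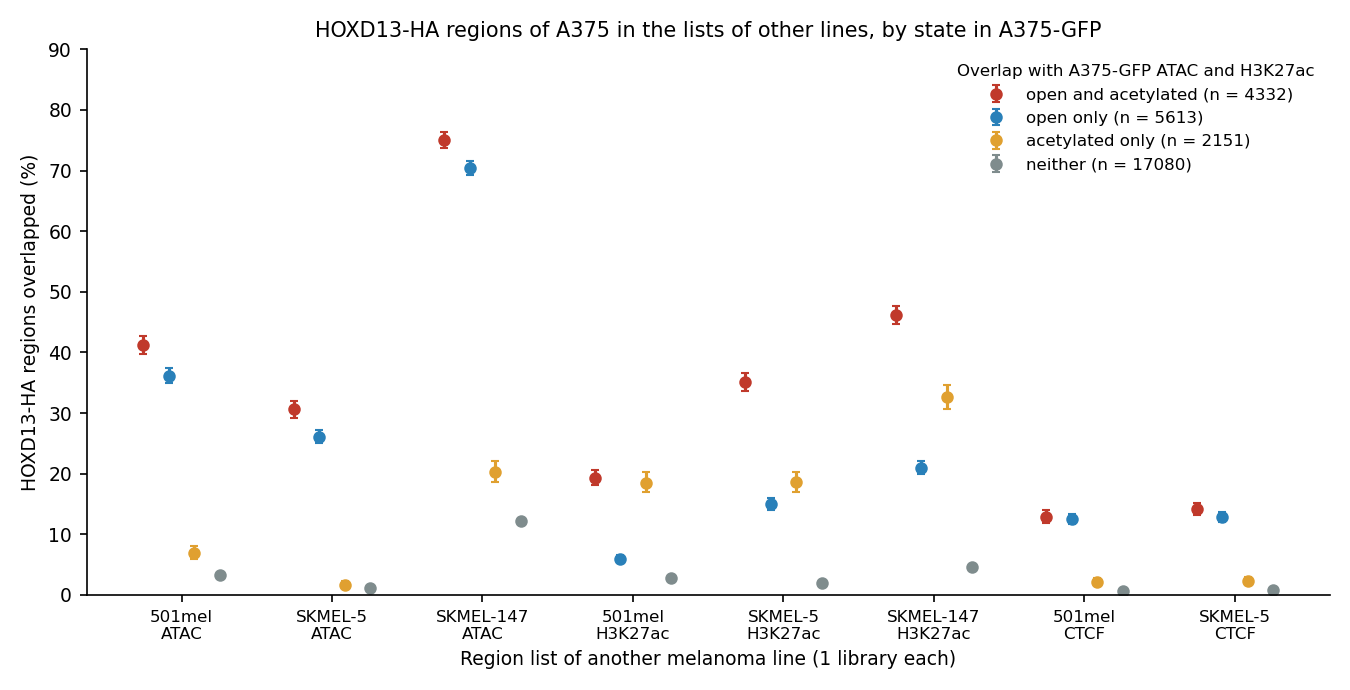
Share of HOXD13-HA regions of A375 (%) overlapped by each ATAC, H3K27ac or CTCF list of another line, for the 4 classes of state in A375-GFP, with 95% Wilson intervals. The open and acetylated sites reach 75.1% for SKMEL-147 ATAC and 46.1% for its H3K27ac, and they lie above the other classes or level with them in every list.

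Counted over lines, 939 sites (21.7%) were open in all 3 other lines, beside 6.96% of all HOXD13-HA regions, and 695 (16.0%) were open in none, beside 62.1%. Acetylation was shared less: 385 sites (8.89%, beside 2.14%) were acetylated in all 3 and 1515 (35.0%, beside 75.9%) in none. With the ATAC lists held to equal length 13.9% of sites were open in all 3, and with the HOXD13-HA summit required inside the regions 14.4% were. With −log10 q of at least 10 in every list 5.30% were acetylated in all 3. Both marks together were found at 14.5% of sites in 501mel (3.82%), 21.6% in SKMEL-5 (5.76%) and 42.6% in SKMEL-147 (12.4%). At 28.9% of sites, SKMEL-147 had both marks and each other line at most 1. The share was 9.27% of all HOXD13-HA regions and 15.1% of the open only. Both marks in all 3 lines were found at 219 sites (5.06%, beside 0.98%). TGFBI, PREP, HNRNPA3, FOXD2 and SRGAP1 had the highest folds of that group, from 13.8 to 8.08, followed by STAG1, STOM, HAUS6, JADE2 and LOC112267897. These 10 sites were all in both shNTC lists, 9 in shH2 and 10 in shH3, beside 86.3%, 67.2% and 76.7% of all sites. The most frequent combination, 746 sites (17.2%), was open and acetylated in SKMEL-147 with no mark in 501mel or SKMEL-5. Another 613 (14.2%) were open in SKMEL-147 with no other mark. These 2 combinations were counted at the sites only, so no share over all HOXD13-HA regions stands beside them. SKMEL-147 also had the longest ATAC list, with 163102 regions. No other line listed either mark at 487 sites (11.2%, beside 56.3%), among them those near NPRL3, POLR1A, PRDM1, MYC and OIT3.

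Sites near gene starts, or near the gene end used in place of a missing start, differed from distal ones. Within 2 kb of a start 60.6% were open in 501mel, 38.5% in SKMEL-5 and 82.1% in SKMEL-147, against 39.5%, 29.9% and 74.5% farther out. Acetylation in SKMEL-5 covered 64.8% near starts and 32.4% beyond, while in SKMEL-147 it covered 34.1% and 47.2%. These directions were not particular to the sites. Acetylated A375-GFP ATAC regions without HOXD13-HA were open near starts and beyond at 89.4% and 50.6% in 501mel. In SKMEL-5 these shares were 80.8% and 37.0%, and in SKMEL-147 95.7% and 72.0%. Their acetylation covered 74.7% and 32.3% in SKMEL-5 and 27.5% and 36.8% in SKMEL-147.

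Acetylated ATAC regions of A375-GFP gave a comparison among chromatin that was open and acetylated with and without the factor. Of these, 4168 held a site and 39215 held no HOXD13-HA region, with median widths of 823 and 803 bp and median ATAC folds of 8.55 and 8.36. SKMEL-147 acetylated 50.2% of the regions with a site and 34.7% of those without HOXD13-HA, a difference of 15.5 percentage points (Newcombe 95% interval 13.9 to 17.1). Weighting the second group to the H3K27ac strength and gene-start distance (within 2 kb or beyond) of the first left 11.3 points (9.69 to 12.9). The share was higher with a site in all 10 classes of A375-GFP H3K27ac strength, from 35.1% against 20.0% in the weakest to 66.8% against 64.1% in the strongest. For H3K27ac of the melanocytic lines the difference depended on the weighting. In SKMEL-5 it was -4.82 points unweighted (-6.36 to -3.27), -7.38 weighted to H3K27ac strength alone (-8.92 to -5.84) and -1.49 with gene-start distance as well (-3.04 to 0.0563). Beyond 2 kb from a gene start the unweighted SKMEL-5 difference turned to 1.90 points (0.324 to 3.51). Weighted to H3K27ac strength, the difference there was -0.905 points (-2.50 to 0.688). In 501mel the same first 3 values were -0.35 (-1.67 to 1.02), -2.46 (-3.81 to -1.11) and -1.35 (-2.71 to 0.000328). Beyond 2 kb the 501mel difference was 0.675 unweighted (-0.689 to 2.09) and -1.37 weighted to H3K27ac strength (-2.77 to 0.0216). Openness in SKMEL-147 differed by 2.91 points unweighted (1.61 to 4.16) and 5.42 with both weights (4.13 to 6.72). In 501mel it differed by -11.4 points (-13.0 to -9.80) and -7.29 (-8.89 to -5.68), and in SKMEL-5 by -7.48 (-9.04 to -5.91) and -2.83 (-4.40 to -1.26). Beyond 2 kb from a gene start the unweighted SKMEL-5 difference was -0.476 points (-2.08 to 1.15), an interval that includes 0. Weighted to H3K27ac strength, that difference was -2.35 points (-3.97 to -0.726). Regions are not replicates and each line is 1 library, so these intervals hold for the lists and not for the lines.

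CTCF was more frequent at the sites than over all HOXD13-HA regions, at shares close to those of the open only regions. It was less frequent in acetylated ATAC regions with a site than in those without HOXD13-HA. CTCF of 501mel covered 12.9% of sites, beside 4.85% of all HOXD13-HA regions, and CTCF of SKMEL-5 14.1%, beside 5.22%. Either of them covered 18.4%, beside 6.84%, and 8.61% had it in both lines, beside 3.24%. For acetylated ATAC regions the shares were 23.6% with a site and 32.7% without HOXD13-HA, a difference of -9.11 points (-10.5 to -7.72), and of -5.58 points (-6.95 to -4.20) after weighting to the same H3K27ac strength and gene-start distance. Beyond 2 kb from a gene start they were 21.0% and 24.9%. Within 2 kb of a start 33.0% of sites had CTCF in either line, and farther out 17.1%. CTCF was not measured in A375.

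Most sites were in the H3K27ac lists of the hairpin series. The sites were chosen by H3K27ac of A375-GFP, the same line and mark, so high shares in these lists follow in part from the rule. H3K27ac was listed at 89.6% and 88.6% of sites in the shNTC replicates and at 86.3% in both (24.9% of all HOXD13-HA regions), at 67.2% in shH2 (15.7%) and at 76.7% in shH3 (19.6%). With the 4 lists held to the length of the shortest, the shares were 78.5%, 78.2%, 67.2% and 72.7%, so the order was the same and the distances smaller. All 4 lists held 60.3% of sites (all HOXD13-HA regions 12.7%). Of the 3737 sites in both shNTC lists, 2612 (69.9%) were in both hairpin lists, 534 (14.3%) in shH3 alone, 188 (5.03%) in shH2 alone and 403 (10.8%, 9.83 to 11.8%) in neither. As shares of all sites the last 3 were 12.3%, 4.34% and 9.30%, beside 4.22%, 1.75% and 6.21% of all HOXD13-HA regions. Of all A375-GFP H3K27ac regions in both shNTC lists 31.0% were in neither hairpin list. Of all HOXD13-HA regions in both shNTC lists 25.0% were in neither hairpin list, with 30.3% in the open only, 38.5% in the acetylated only and 74.1% in those with neither mark. By the rule, the open only regions and those with neither mark overlap no A375-GFP H3K27ac region. At equal list length the share of sites in neither was 7.52%. Counted on shH2 alone it was 25.1%, and on shH3 alone 15.8%.

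The share missing from both hairpin lists followed the strength of acetylation in A375-GFP. With sites cut into 10 equal classes by H3K27ac −log10 q, it was 26.7% of those in both shNTC lists in the lowest class and 1.17% in the highest. Sites were also cut into 4 equal classes by HOXD13-HA −log10 q. As shares of all sites of a class, which is another denominator, 11.7%, 8.22%, 9.23% and 8.03% from the lowest to the highest were in both shNTC lists and in neither hairpin list.

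Acetylated ATAC regions with a site were missing from both hairpin lists less often than those without HOXD13-HA. Among regions in both shNTC lists the shares were 8.56% of 3705 and 13.6% of 31745, a difference of -5.03 points (-5.97 to -4.02). Weighted to the same H3K27ac strength it was -4.10 points (-5.06 to -3.14), and with gene-start distance as well -5.62 (-6.60 to -4.64). The share was lower with a site in each of the 10 classes, 23.8% against 33.4% in the weakest and 0.876% against 1.06% in the strongest, where 5 and 40 regions were missing.

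**Figure D5:**
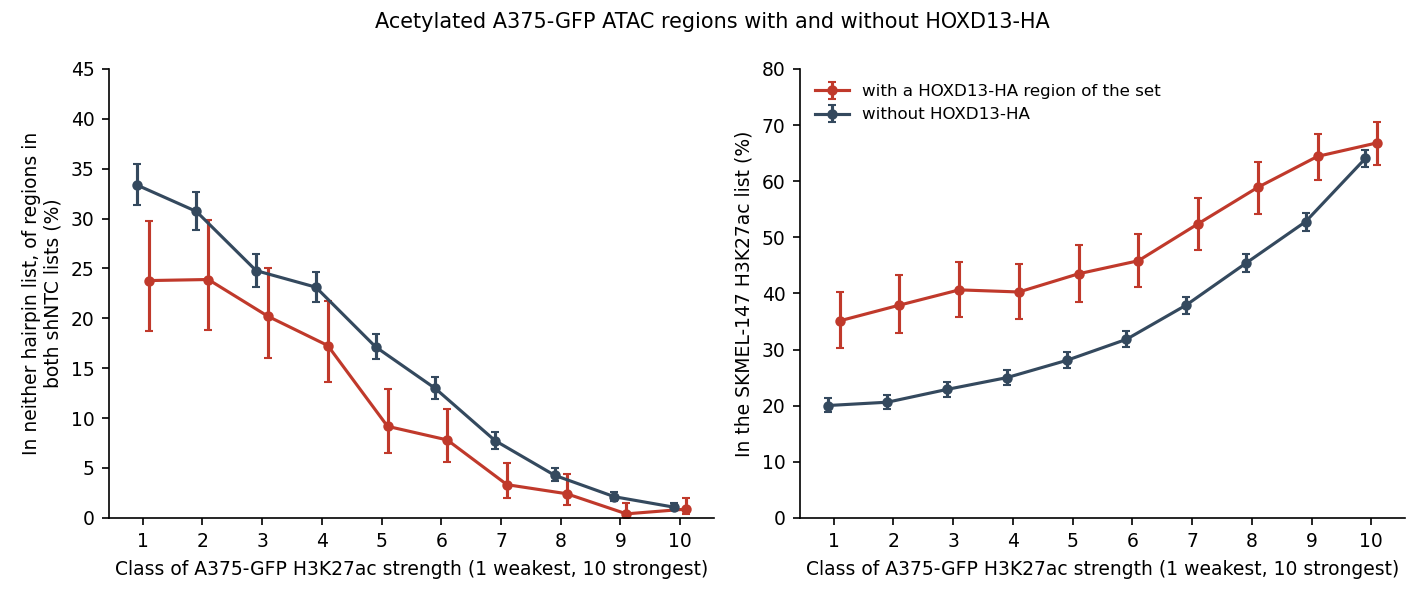
Acetylated A375-GFP ATAC regions by class of A375-GFP H3K27ac strength (1 weakest to 10 strongest), with a HOXD13-HA site in red and without HOXD13-HA in dark grey, with 95% Wilson intervals. On the left the share missing from both hairpin lists (%) falls from 23.8% and 33.4% with strength, and on the right the share in the SKMEL-147 H3K27ac list (%) is higher with a site in every class.

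Among the 403 sites in both shNTC lists and in neither hairpin list, the highest HOXD13-HA folds were at MYC (16.0), FOXN1 (15.1), OIT3 (14.5), MOCS1 (13.9), PALS2 (13.9) and GLRX (13.8). FOXN1 encodes the transcription factor of thymic epithelium, and GLRX encodes a glutaredoxin. KIF3C, EPHA2, MUSK and DPYD followed at 12.6 to 9.52. The H3K27ac folds of these 10 sites ran from 2.51 to 7.40 in A375-GFP. The MYC site lay 149105 bp from the gene, with H3K27ac folds of 4.78 and 4.45 in the shNTC replicates, and no other line listed it. EPHA2, an ephrin receptor kinase gene, shows how such sites sat beside others. Its site of fold 10.8 (chr1:16122765-16123231) had H3K27ac folds of 4.58 and 3.93 in shNTC and no region in shH2 or shH3. A neighbour inside the gene (chr1:16139709-16139986) had 18.7 and 19.7 in shNTC, 7.89 in shH2 and 12.3 in shH3. Of the 5 sites around EPHA2 3 were in all 4 lists and 2 in the shNTC lists only, of those 4.

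The reverse was rare: 29 sites (0.669%, beside 0.291% of all HOXD13-HA regions) were in both hairpin lists and in neither shNTC list. The highest folds were at KIF20B (9.98), SMCO4 (9.07), INAVA (8.43), CALCOCO1 (8.43), SPRY4 (8.36) and KIT (8.07). SPRY4 encodes an inhibitor of the MAPK pathway and KIT a receptor kinase needed by melanocytes, and both sites were distal, at 115440 and 158444 bp. LOC124900752, RBMS3, XPA and MED15 followed, at 7.42 to 5.66. Of these 10 sites 8 were open in SKMEL-147, near the 75.1% of all sites, and 2 in 501mel, beside 41.3%. The KIF20B site had H3K27ac folds of 2.05 in A375-GFP, 3.64 in shH2 and 5.43 in shH3, and an ATAC fold of 20.2 in SKMEL-147.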

How the data were processed

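The 15 region lists of 21 samples were used, each made by the authors from 1 library with Trim Galore, Bowtie2, SAMtools and MACS2 on hg38, per the submitters' processing notes. Versions, settings and control libraries are not given in the sources used here, and deepTools is also named. The deposited lists give a score, a fold enrichment (ratio) of the summit, and −log10 p and −log10 q, all the authors' values. Each score equals the whole part of 10 times −log10 q for nearly every region. No such value was compared between lists as a level. Of the A375-GFP ATAC rows, 3266 of 121664 on other sequences were left out.

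An overlap of 1 bp or more counted as shared (Python 3.11.15, numpy 2.4.6, pandas 2.3.3, scipy 1.17.1). Shares have 95% Wilson intervals and unweighted differences Newcombe intervals. Weighted differences have 95% intervals from a normal approximation. Regions lost were those in both shNTC lists and in neither hairpin list. Standardised shares weight acetylated ATAC regions without HOXD13-HA to the 10 classes of A375-GFP H3K27ac −log10 q of those with a site. Where gene-start distance was added, each class was split only into regions within 2 kb of a gene start and regions beyond. Genes were 19974 RefSeq protein-coding genes of GRCh38.p14, 15812 with a start from the promoter table. Gene lists counted a site within 50 kb of the gene (2 symbols were not matched). The overlap and interval code was tested on simulated data. Named sites were the highest by HOXD13-HA fold, of all and of each group, and up to 4 genes of each list. The sites and the lists were chosen with earlier results of these data known. Locus examples, chains beyond the longest 5, and printed promoters were chosen after their values were seen.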

Additional observations from a re-analysis of the deposited data

How the results depend on the processing

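Leaving out the MHC moved none of the 12 main results beyond the limits set for a moved value. It holds only 2 sites (0.0462%), so it could hardly move them. Over all alternatives run, 35 values of the main results moved and 53 did not. With at least 50% of each HOXD13-HA region covered, 9.69% of HOXD13-HA regions were sites, 9.80% of them were acetylated in all 3 other lines, 65.4% were in all 4 shNTC and hairpin lists and 9.51% of those in both shNTC lists were in neither hairpin list. With the HOXD13-HA summit inside the regions the same 4 values were 9.60%, 6.68%, 49.3% and 14.5%, with 14.4% open in all 3 other lines and 13.7% at CTCF. With −log10 q of at least 10 in every list they were 11.2%, 5.30%, 53.9% and 9.45%, with 6.85% within 2 kb of a gene start, 15.1% open in all 3, 15.6% at CTCF, 56 genes of the lists with a site (132 without the minimum) and CTCGTAAA in 0 promoters. With −log10 q of at least 5 the first 3 of these were 13.5%, 6.25% and 58.0%, with 20.1% open in all 3 and 16.9% at CTCF. Within 1 kb and 5 kb of a gene start lay 5.56% and 12.3% of sites. Without shNTC replicate 1 or 2 the share in neither hairpin list was 11.8% to 12.3%, and it was 25.1% counted on shH2 and 15.8% on shH3. At equal list lengths 55.7% were in all 4 lists and 7.52% in neither hairpin list, 13.9% were open and 7.73% acetylated in all 3 other lines. For sites over 2 kb from a gene start, an alternative chosen after seeing the data, 17.1% were at CTCF. Why these values moved was not tested. In every setting run, ATAC regions with a site were less often lost than those without HOXD13-HA, with differences from -9.81 to -3.46 points, and more often acetylated in SKMEL-147, with differences from 9.65 to 17.3 points. No paired analysis was possible because only the shNTC group has replicate numbers. A region missing from a list may be a weak one under the caller's threshold, and without read counts the depth behind a missing region is unknown.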
